A study of Mus musculus with 10 samples.

Results

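Adcy3, Adcy4, Adcy5, Adcy6, Adcy7 and Adcy9 encode membrane adenylyl cyclases, and Adrb1 encodes the beta-1 adrenergic receptor. These 7 genes were followed in mouse ventricle with and without aldosterone, out of 32585 genes or transcripts on the array. They were taken by name, as every array probe that maps to them, which gave 10 probes. Adcy7 was selected on its measured log2 ratios, for its difference between the groups in these same hearts, so its values are a description and carry no test. No further member was named as chosen for its values. Of the 7 genes, 6 had a probe bright enough to be fitted, and 5 of these were tested.

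The ventricles came from male mice, either untreated (control, n = 5) or given aldosterone, the adrenal mineralocorticoid hormone (n = 5), with a duration of 7 days on the labels of both groups. The sample titles call the animals of both groups Ctrl, a term they do not explain; control here means untreated. The labels used here give no strain, age, dose or route. Each heart's RNA, labelled with Cy5, was hybridised on a 2-colour Agilent array beside 1 Cy3 reference pooled from liver, brain, heart, kidney and spleen. A value is therefore the log2 ratio of a heart to that pool, and 1 unit is a doubling. Scanner files cover 9 arrays, without aldosterone 4. The authors' deposited value table covers all 10 hearts and shares the other 9 arrays, so the sources are not independent. The hearts carry separate animal labels.

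Beta-adrenergic receptors on the cell surface respond to noradrenaline and adrenaline. They act through the stimulatory G protein, which switches on adenylyl cyclase to make cyclic AMP (cAMP), and cAMP activates protein kinase A. In cardiac muscle this chain raises the rate and force of contraction. Adcy5 and Adcy6 encode the main cyclases of cardiac myocytes, while Adcy7 is known from blood and immune cells, among others.

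Promoter windows are shown for Adcy7, the gene with the difference, and for Adrb1, the receptor. Each is the 250 bases before a transcript start, 5′ to 3′ on the gene's strand, from RefSeq on build GRCm38.p6. Windows were found for 6 of the 7 genes, all but Adcy6. Adcy7 has 3 annotated starts on chromosome 8, plus strand, and Adrb1 has 1 on chromosome 19, plus strand. Capitals mark the core of the cAMP response element, TGACG, on either strand.
Adcy7, chr8:88282742-88282991: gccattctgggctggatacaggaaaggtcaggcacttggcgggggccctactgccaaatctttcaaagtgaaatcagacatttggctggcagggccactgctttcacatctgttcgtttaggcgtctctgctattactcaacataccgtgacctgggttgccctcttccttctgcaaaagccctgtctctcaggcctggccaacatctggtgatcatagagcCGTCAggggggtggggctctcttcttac
Adcy7, chr8:88288816-88289065: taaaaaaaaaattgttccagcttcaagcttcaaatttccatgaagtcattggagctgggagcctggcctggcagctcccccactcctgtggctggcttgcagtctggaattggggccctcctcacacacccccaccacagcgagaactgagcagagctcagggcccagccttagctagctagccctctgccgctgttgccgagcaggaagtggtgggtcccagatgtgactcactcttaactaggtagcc
Adcy7, chr8:88293954-88294203: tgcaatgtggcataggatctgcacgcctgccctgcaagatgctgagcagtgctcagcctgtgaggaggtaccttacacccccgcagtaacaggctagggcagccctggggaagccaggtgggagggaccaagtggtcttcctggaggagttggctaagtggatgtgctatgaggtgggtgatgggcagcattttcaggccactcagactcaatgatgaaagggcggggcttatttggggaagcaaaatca
Adrb1, chr19:56721867-56722116: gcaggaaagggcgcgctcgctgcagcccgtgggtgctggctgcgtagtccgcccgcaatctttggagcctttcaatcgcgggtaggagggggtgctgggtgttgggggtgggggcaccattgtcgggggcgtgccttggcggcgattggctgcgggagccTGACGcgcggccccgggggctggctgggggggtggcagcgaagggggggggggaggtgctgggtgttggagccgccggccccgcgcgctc
Both strands were searched for 4 motifs. TGACG lay 28 bases before the first Adcy7 start, 90 before the Adrb1 start and 24 before the Adcy9 start. Of 32851 windows of this length, 17.8% hold it. The full cAMP element TGACGTCA, which contains TGACG, was in 1.55% of all windows. The corticosteroid receptor element, AGAACA and TGTTCT with 3 bases between them, was in 0.00913%, and AGAACA, which it contains, in 16.1%. These 3 motifs had no match in the windows of the 6 genes. The matches and their absence describe letters only.

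On the 9 arrays 64.3% to 70.9% of probes were well above background, and 22011 genes or transcripts were tested. Adcy3, a cyclase known from olfactory neurons, had 1 probe that was not well above background on any of the 9 arrays. Its Cy5 signal was 64 to 73 over a local background of 56 to 64, so no level or fold is given. In limma's fit of the scanner files with Benjamini-Hochberg adjustment over all genes, 0 of 22011 (0%) passed 0.05, and 1366 (6.21%) had an unadjusted p under 0.05. In the same fit of the deposited values, 37 genes passed (0.168%), 1778 (8.08%) had an unadjusted p under 0.05, and 2 to 51 passed as each heart was left out in turn. Clustering of the 2000 most variable genes, with the cAMP pathway left out, put the hearts into 2 sets that cross the treatment: controls 1, 3 and 4 with aldosterone 3 and 5, and the other 5 hearts.

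The receptor and the cyclases other than Adcy7 had overlapping groups throughout. None of the 5 tested genes (Adrb1, Adcy4, Adcy5, Adcy6, Adcy9) passed in either source, and none had an unadjusted limma p under 0.05 in either. Exact two-sided permutation of the hearts, run for 5 genes in 2 sources, gave p from 0.254 to 0.857. The smallest p it allows is 0.00794.

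**Figure D1:**
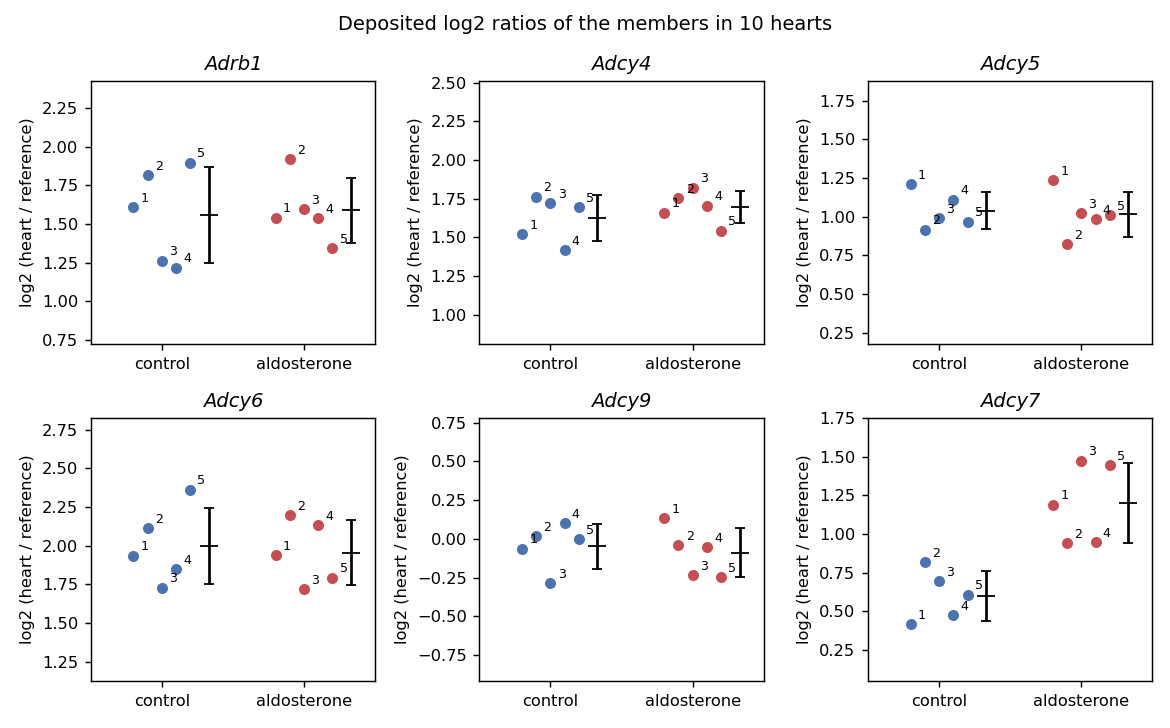
Deposited log2 ratios of heart to reference (vertical axis) for 6 genes; points are hearts, numbered by replicate, blue for control and red for aldosterone, with group means and SD as bars. The groups overlap for Adrb1, Adcy4, Adcy5, Adcy6 and Adcy9, while the aldosterone hearts lie at 0.94 to 1.47 for Adcy7 against 0.42 to 0.82 in controls.

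Adrb1, whose product is the main beta receptor of the ventricle, varied widely within both groups. In the value table controls 1 to 5 were at 1.61, 1.82, 1.26, 1.22 and 1.90, and aldosterone hearts 1 to 5 at 1.54, 1.92, 1.60, 1.54 and 1.34. The aldosterone hearts all lay inside the control range except aldosterone 2, just above it. The means were 1.56 ± 0.31 (SD, n = 5) and 1.59 ± 0.21 (SD, n = 5), a difference of 0.03 with a 95% interval of -0.32 to 0.38 (limma adjusted p = 0.985). On the arrays the difference was 0.07 with an interval of -0.28 to 0.41 (limma adjusted p = 1.00). A second, dimmer Adrb1 probe differed by 0.01 (SE 0.08) on the arrays and -0.02 (SE 0.24) in the table. With the dyes quantile-normalized apart, this probe differed by -0.24 in Cy5 and -0.13 in the Cy3 reference, with overlapping groups. At the brighter Adrb1 probe the Cy3 reference differed by -0.09, also with overlapping groups.

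Adcy6 followed a similar spread. Controls 1 to 5 were at 1.94, 2.11, 1.73, 1.85 and 2.36 in the value table, and aldosterone hearts at 1.94, 2.20, 1.72, 2.13 and 1.79. Control 5 was the highest heart and aldosterone 3 the lowest. The difference was -0.04 (95% interval -0.35 to 0.26, limma adjusted p = 0.965) in the table and -0.11 (-0.41 to 0.20, limma adjusted p = 0.999) on the arrays. Between the 2 sets of hearts Adcy6 was at 1.72 to 1.94 in the first and 1.94 to 2.36 in the second, and Adrb1 at 1.22 to 1.61 and 1.54 to 1.92. The difference between the sets was not tested.

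Adcy5 was steadier. Controls were at 1.21, 0.92, 0.99, 1.11 and 0.97 in the value table, and aldosterone hearts at 1.24, 0.82, 1.02, 0.98 and 1.01. The groups overlapped almost completely, with a difference of -0.02 (95% interval -0.22 to 0.17) in the table and 0.02 (-0.14 to 0.18) on the arrays, so the sign depended on the source. The other Adcy5 probes differed by -0.01 and -0.10 on the arrays and by -0.01 and -0.12 in the table.

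Adcy4 belongs to the same cyclase subfamily as Adcy7, which G protein beta-gamma subunits can stimulate. Its controls were at 1.52, 1.76, 1.72, 1.42 and 1.70 in the value table, and aldosterone hearts at 1.66, 1.75, 1.82, 1.70 and 1.54. The groups overlapped, controls 1 and 4 being the lowest hearts. The difference was 0.07 (95% interval -0.11 to 0.26, limma adjusted p = 0.882) in the table and 0.11 (-0.08 to 0.30, limma adjusted p = 0.978) on the arrays.

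Adcy9, a cyclase largely insensitive to forskolin, was close to its level in the reference pool. Controls were at -0.06, 0.02, -0.29, 0.10 and -0.00 in the value table, and aldosterone hearts at 0.14, -0.04, -0.24, -0.05 and -0.25. The differences were -0.04 (95% interval -0.26 to 0.17) in the table and -0.02 (-0.22 to 0.18) on the arrays. Of the 5 tested genes, Adrb1 and Adcy6 had the widest intervals on the arrays and Adcy5 the narrowest.

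Adcy7 was higher in every aldosterone heart than in every control, by about 1.5 times. In the value table controls 1 to 5 were at 0.42, 0.82, 0.70, 0.48 and 0.61, and aldosterone hearts 1 to 5 at 1.19, 0.94, 1.47, 0.95 and 1.45. The lowest aldosterone heart was above the highest control, and aldosterone 3 and 5 stood highest. The means were 0.60 ± 0.16 (SD, n = 5) and 1.20 ± 0.26 (SD, n = 5), a difference of 0.60 with SE 0.13, which is 1.51-fold. On the arrays controls were at -0.08, 0.36, 0.19, -0.01 and 0.14, and aldosterone hearts 1, 2, 3 and 5 at 0.68, 0.45, 0.93 and 0.90. That difference was 0.62 with SE 0.11, or 1.54-fold, and again the groups did not overlap. Because the gene was chosen for this difference, no p is given.

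Among all genes, every aldosterone heart was above every control for 1.34% in the table and 1.47% on the arrays. A difference at least as large as that of Adcy7 was found for 1.62% of genes in the table and 0.245% on the arrays. These shares place the gene among the others and test nothing. Ventricle RNA was measured in bulk, so more cells that express Adcy7 and more Adcy7 RNA per cell cannot be told apart.

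**Figure D2:**
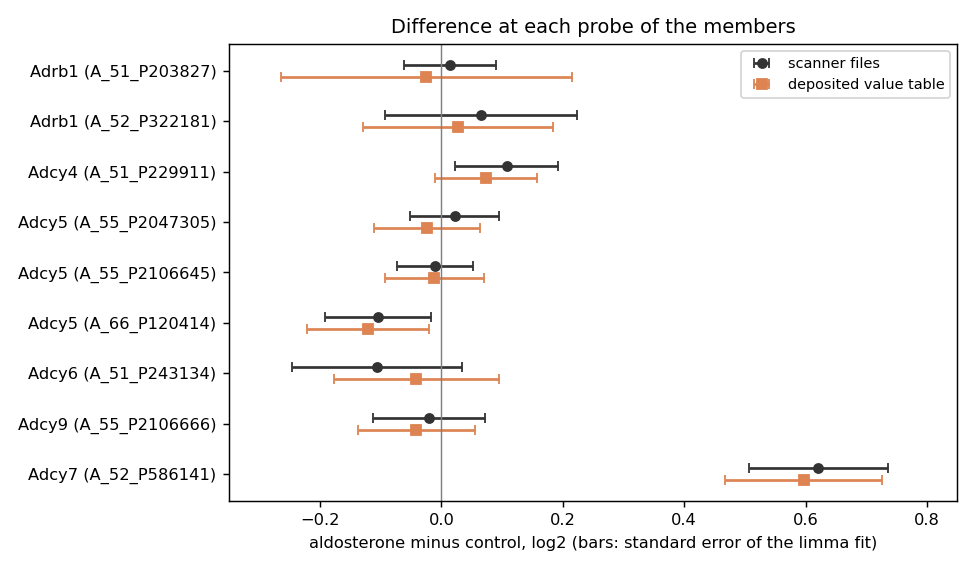
Aldosterone minus control difference in log2 ratio (horizontal axis) at each of 9 probes of 6 genes, for the scanner files (circles) and the deposited value table (squares), with the standard error of the limma fit as bars. Adcy7 lies at 0.62 and 0.60, and the other probes lie between -0.12 and 0.11.

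The dyes were also read apart for Adcy7. Its Cy5 signal before normalization was 586.5 to 974.5 in controls and 790 to 1527 in aldosterone hearts, over a background of 54.5 to 59.5, so the raw signals overlapped. After quantile normalization the Cy5 channel alone gave 9.37 to 9.72 in controls and 9.79 to 10.30 in aldosterone hearts, a difference of 0.53 without overlap. The Cy3 reference at this probe, the same RNA on every array, was 8.25 to 8.38 beside controls and 8.15 to 8.25 beside aldosterone hearts. These reference values also did not overlap, though narrowly (lowest beside controls 8.254, highest beside aldosterone hearts 8.252). Their difference of -0.10 adds to the ratio. How many of all probes show no overlap in either dye alone was not counted. Position on the slide followed the group (1 or 4 for a control, 2 for an aldosterone heart), and the effects of position and treatment cannot be told apart.

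Within each of the 4 slides, each scanned at a time of its own, the aldosterone array had the higher Adcy7 ratio. This direction was fixed in advance, because every aldosterone array was above every control, so it adds no support. The differences on slides 1 to 4 were 0.54, 0.27, 0.93 and 0.76, and with slide as a block the difference was 0.62 (SE 0.13). Slide 1 held 2 controls, and the others 1 array of each group. Adrb1 went both ways, with -0.10, 0.64, 0.39 and -0.53, and Adcy6 likewise, with -0.19, 0.47, -0.07 and -0.60. Slides 2 and 4 each paired hearts of different sets, and Adrb1 and Adcy6 differed with opposite signs on these slides. Adcy4 gave 0.08, 0.07, 0.44 and -0.14.

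**Figure D3:**
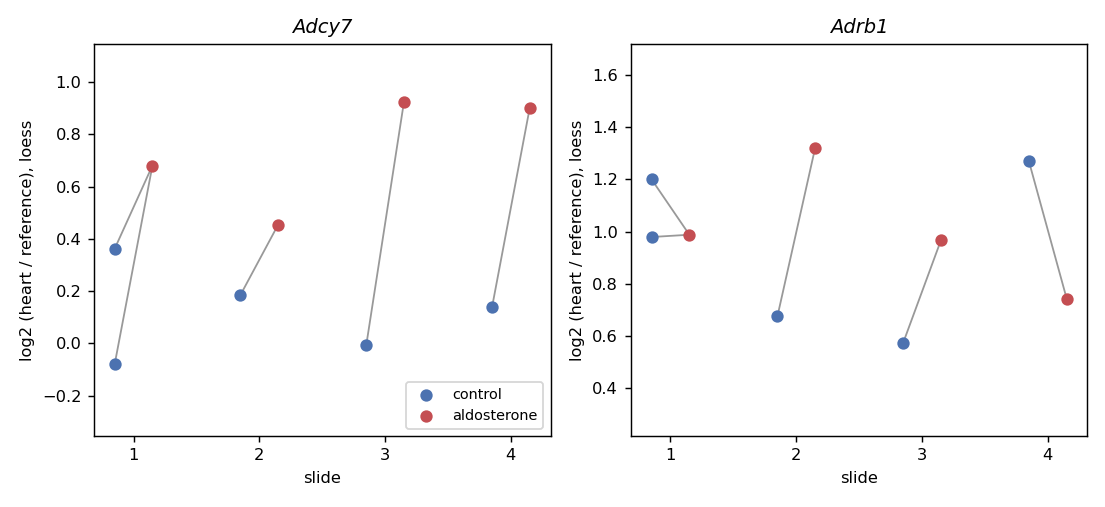
Log2 ratio of heart to reference after loess (vertical axis) by slide (horizontal axis) for Adcy7 and Adrb1, with blue points for control and red points for aldosterone arrays and lines joining arrays of the same slide. Adcy7 is higher in the aldosterone array on each of the 4 slides, and Adrb1 is higher on slides 2 and 3 and lower on slide 4.

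The Adcy7 difference had the same direction in both sets of hearts, as it had to, because every aldosterone heart was above every control. In the first set the value table gave 0.42 to 0.70 in 3 controls against 1.45 and 1.47 in 2 aldosterone hearts, a difference of 0.93. In the second it gave 0.61 and 0.82 in 2 controls against 0.94 to 1.19 in 3 aldosterone hearts, a difference of 0.31. Whether these differ was not tested.

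Fibroblast markers also had larger mean ratios in the aldosterone hearts. All 9 fibroblast markers had a positive difference on the arrays, from 0.09 (SE 0.08) for Tcf21 to 0.64 (SE 0.29) for Postn. Their median was 0.48 on the arrays and 0.47 in the table, beside a median over all genes of 0.01 and -0.00. None of the 9 passed the adjusted threshold in the scanner files (0% of all genes did). The mean ratio of the list was 0.03 to 0.72 in controls and 0.44 to 1.01 in aldosterone arrays, so the groups overlapped. Of 10 macrophage markers measured, 8 had a positive difference (median 0.15), and Cd68 was not on the array under that name. The differences of all 5 platelet markers measured were positive (median 0.15), while Gp1ba and Gp6 were too dim to test.

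The lists of muscle and vessel cells had medians near 0. On the arrays the median was -0.03 for 9 cardiomyocyte markers (3 positive) and -0.03 for 8 endothelial markers (3 positive). For 8 smooth muscle and pericyte markers it was 0.01 (4 positive). Single markers lay further out, among them Ryr2 at 0.35 (SE 0.31), Vwf at 0.32 (SE 0.13) and Myh6 at -0.14 (SE 0.11). Of 8 lymphocyte markers 0 had a positive difference (median -0.07). The 4 erythroid markers measured were all positive (median 0.53), and 4 of 5 adipocyte markers were negative (median -0.09 on the arrays and -1.09 in the table). Of these adipocyte markers, Adipoq, Plin1 and Cidec were dim, well above background on 5, 4 and 7 of 9 arrays. Cfd and Fabp4 were well above it on all 9. The part of these cell types in the Adcy7 difference was not tested.

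The genes whose profile over the hearts lay closest to that of Adcy7 were found by the mean absolute difference between log2 values, each centred on its gene's mean. Over 10 hearts and 15225 genes these were Loxl1 (0.0672), Igsf10 (0.0954), Fstl1 (0.101), Pla2g4a (0.104) and Inhba (0.107), where the median gene was at 0.329. Over the 9 arrays they were Loxl1 (0.0847), Col8a1 (0.107), Loxl2 (0.113), Fstl1 (0.117) and Emp1 (0.127), with a median of 0.319. Loxl1 and Loxl2 encode collagen and elastin crosslinking enzymes, Col8a1 a short-chain collagen, and Inhba a subunit of activin. These points share arrays and the reference, and the order is a description. By the same measure, among 15197 genes on the arrays, Adcy4 ranked 1131 (0.261) and Adcy5 5021 (0.303), nearer to Adcy7 than the median gene. Adcy9 ranked 8580, Adrb1 12524 and Adcy6 14315, beyond it. The measure depends on a gene's own spread as well as on its profile, so these ranks need not show likeness to Adcy7.

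**Figure D4:**
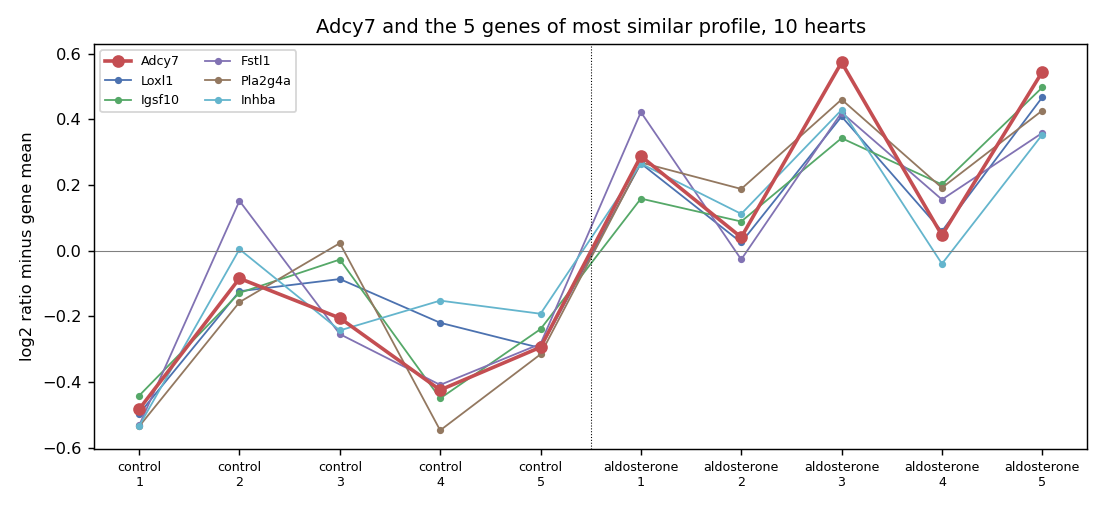
Deposited log2 ratio minus the gene's mean over 10 hearts (vertical axis) for Adcy7 (thick red line) and the 5 genes closest to it, by heart (horizontal axis); lines only guide the eye. All 6 genes are lowest or close to lowest in control 1, and Adcy7 ranges from -0.48 to 0.57.

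The rest of the cAMP pathway was read from a list of 73 genes, of which 71 were on the array and 66 were tested. No gene of the list passed the adjusted threshold in either source (0% and 0.168% of all genes did). On the arrays 43 of the 66 differences, that of Adcy7 among them, were positive, against 52.3% of all genes, and the median was 0.02. In the deposited values 39 were positive, against 49.9% of all genes, and the median was 0.03. An unadjusted p under 0.05 in the scanner files was reached by 4 pathway genes, all with a positive difference, beside 4.18% of all genes in that direction.

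The 4 were a pair of anchors that tether protein kinase A, a phosphodiesterase that breaks down cAMP, and a cAMP-binding membrane protein. The anchor gene Akap5 differed by 0.54 (SE 0.15, limma adjusted p = 0.492), with controls at -2.14 to -1.38 and aldosterone arrays at -1.60 to -1.05. Akap12 differed by 0.27 (SE 0.10, limma adjusted p = 0.682), but by -0.04 at its second, dimmer probe. The phosphodiesterase gene Pde3b differed by 0.22 (SE 0.08, limma adjusted p = 0.731). Bves, which was named after its values were seen, differed by 0.24 (SE 0.10, limma adjusted p = 0.789). In the value table Akap5, Akap12, Bves and the phosphodiesterase gene Pde4d were the genes with an unadjusted p under 0.05.

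The differences of 12 receptor and G protein genes ran from -0.11 to 0.13 on the arrays. None of the 12 had an unadjusted limma p under 0.05 in either source. On the arrays the difference was 0.03 (SE 0.06) for Adrb3, which encodes the beta-3 receptor. The Adrb3 probe was dim, with a median Cy5 signal of 86.5, and in the deposited values it differed by -0.01 (SE 0.25). The array difference was -0.03 (SE 0.08) for Gnas, which encodes the stimulatory G protein alpha subunit, and 0.06 (SE 0.09) for Gnai2, an inhibitory one. A second Gnas probe differed by -0.09 (SE 0.07) on the arrays and -0.13 (SE 0.065) in the deposited values. Grk2, the kinase that desensitises beta receptors, differed by -0.07 (SE 0.06), and Prkaca, the catalytic subunit of protein kinase A, by -0.05 (SE 0.06). In the deposited values Prkaca differed by -0.15 (SE 0.07, limma adjusted p = 0.622). Pde4d differed by 0.19 (SE 0.09).

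In the scanner files the negative differences of smallest p were those of Pde4a (-0.10, SE 0.06), Cacna1c (-0.15, SE 0.09) and Pde8a (-0.09, SE 0.07). The second Pde4a probe differed by 0.017. Cacna1c encodes the pore of the L-type calcium channel, and in the deposited values it differed by -0.33 (SE 0.20), and Pde8a by -0.27 (SE 0.26). The smallest p among negative differences in the deposited values was that of Prkaca, followed by Grk2 (-0.10, SE 0.05). By role, the median was 0.04 for 12 receptor and G protein genes, 0.05 for 14 genes of protein kinase A and its anchors, and -0.00 for 12 phosphodiesterases. It was 0.09 for 6 other cAMP effectors and 0.02 for 11 substrates and transcription factors. Of the cyclases off the list of 7, Adcy1 differed by 0.00 (SE 0.20), and Adcy2, Adcy8 and Adcy10 were too dim to test.

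**Figure D5:**
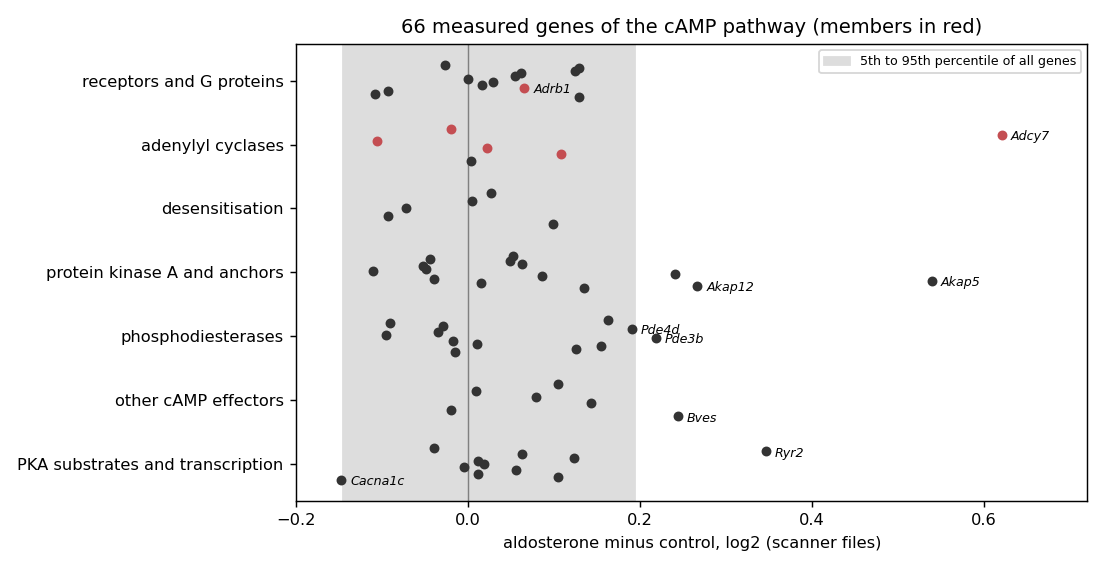
Aldosterone minus control difference in log2 ratio on the 9 arrays (horizontal axis) for 66 pathway genes, by role (vertical axis; vertical scatter within a role has no meaning), with the 6 measured cyclase and receptor genes described above in red. Adcy7 at 0.62 and Akap5 at 0.54 lie furthest to the right, beyond the shaded 5th to 95th percentile of all genes (-0.145 to 0.194).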

How the data were processed

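Ventricle RNA (Cy5) from 10 mice was compared with a pooled tissue reference (Cy3). Per the file headers and the submitters' processing notes, arrays were read with Agilent Feature Extraction 10.7.3.1. Its deposited median signals and local backgrounds are intensities, and its deposited log ratio is on the log10 scale. The authors' deposited value table is on the log2 scale, heart over reference: its columns correlate at 0.996 to 1.00 with the scanner's ratio, and 82.7% to 86.6% of probes lie within 0.001. Its column medians are -0.00664 to 0.121, and whether it was centred further stays unknown.

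From the scanner files, any local background over 20 units away from its array's median took that median (control 1 holds one of 11739.5). Normexp (offset 50), loess within arrays with control spots at weight 0, and limma 3.58.1 in R 4.3.3 followed, as a two-sided test whose p-values were adjusted by Benjamini-Hochberg across every gene tested (threshold 0.05). Outlier spots (1667) were left out. Probes well above background in Cy5 on at least 4 arrays were kept (26871 of 39429), 1 a gene by highest mean signal. Matching the probes' accessions to RefSeq transcripts gave a symbol to 26581 probes, and 12848 had none. The value table was fitted on the same probes. Only the scanner fit was tried on simulated data, which had independent noise and no slide, position or heart-set effects.

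The 7 genes, the lists, the replacement of stray backgrounds and the naming rule were chosen with earlier results of these data known. The rule named all 7 genes, the 3 pathway genes of smallest p in each direction, 7 fixed pathway genes (1 of them is not reported here), and the 5 genes closest to Adcy7 in each source. Exact permutation p-values are given unadjusted. The number of arrays limits the precision. The labels do not say whether replicate numbers pair the hearts. Same-numbered hearts had deviations from the group means that correlated at -0.34 to 0.35 on the arrays and -0.21 to 0.28 in the table. With 4 and 5 such pairs, these values cannot decide it. Alternatives covered background, normalization, filters, probe choice, slide, replicate and heart-set blocks, and leaving out each heart.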

Additional observations from a re-analysis of the deposited data

Results flagged for a closer look

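Among 88 groups of hearts checked, 7 held a heart far from the rest of its group for the group's range; chance gives about 5%. On the arrays the Akap12 ratio was 0.52 in control 5 and 0.63 in aldosterone 1, and in the deposited table it was 0.71 in control 5. The Adcy6 ratio was 1.74 in aldosterone 2 on the arrays, against 1.30 to 1.37 in the other aldosterone arrays. Akap5 was at -1.60 in aldosterone 3, and Pde3b at -1.55 in aldosterone 2. The dimmer Adrb1 probe was at 3.06 in aldosterone 3 in the deposited table. Adcy7 held no such heart in either group.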

How the results depend on the processing

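Adcy7 kept a positive difference in all 36 alternative fits, from 0.53 to 0.72, and none of the other 5 genes passed in 180 fits (lowest limma adjusted p 0.652). For Adcy7 the sign was fixed in advance wherever a heart was only left out or a block was added, as its groups did not overlap. Changes of filter or probe choice left its 1 probe, and so its difference of 0.62, unchanged. Agilent's processed signals gave 0.66, as did the table without aldosterone 4, which shares those arrays. Signs of small differences turned on the arrays: Adcy5 to -0.016 with Agilent's processed signals, -0.018 with Cy5 alone and -0.031 with the mean of its probes, and Adrb1 to -0.052 with Cy5 alone. With the set of hearts as a block, an alternative chosen after seeing the data, Adrb1 in the table was -0.041. Leaving out each heart in turn gave ranges on the arrays of -0.029 to 0.083 for Adcy5, -0.071 to 0.043 for Adcy9, -0.040 to 0.15 for Adrb1, 0.057 to 0.17 for Adcy4 (without aldosterone 3 and 5) and -0.21 to -0.0086 for Adcy6 (without aldosterone 2 and control 5). In the table they were -0.079 to 0.025 for Adcy5, -0.11 to 0.050 for Adcy6, -0.058 to 0.11 for Adrb1 and 0.021 to 0.11 for Adcy4 (without control 4 and aldosterone 5). The scanner count of genes passing was 11 with processed signals and 8 with the set block; the table's count was 12 with the set block. Without 1 heart the counts were 0 to 11 (arrays; 11 without control 5) and 2 to 51 (table; 51 without control 5, 2 without aldosterone 3). The cause was not tested. The number of hearts limits small differences.

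With the replicate number as a block, 2 genes passed on the arrays and 0 in the table, Adrb1 was at -0.026 and Adcy9 at 0.0079. Of the controls with a partner, 1 of 4 on the arrays and 0 of 5 in the table correlated best with the aldosterone heart of their own number.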
